A study of Mus musculus with 6 samples.

Results

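Mtor, Rptor, Rictor, Rheb, Tsc1, Tsc2, Sesn1, Sesn2, Sesn3 and Ddit4 encode the core of the mTOR pathway: the kinase, the scaffold of each of its complexes, its direct activator and a set of its restraints. They were chosen by symbol as 10 of the 31017 rows of a gene count table, and all 10 had enough counts to be tested. RNA sequencing was done on mouse Th17 cells, helper T cells named for interleukin 17, that were differentiated in culture. The control group (labelled WT) and the RTF1-deficient group (labelled KO) held 3 libraries each, numbered 1 to 3. RTF1 is a nuclear protein that travels with RNA polymerase II and the PAF1 complex. The labels give neither the way RTF1 was removed nor the strain, age or number of mice. Whether each library came from its own mouse or culture is not stated, so the p-values measure only the spread between these samples, which may be technical in part. Each group held libraries of both sexes, described below, and so drew on more than 1 mouse.

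mTOR is a protein kinase that works in a pair of complexes. With raptor (the Rptor product) it forms mTORC1, which promotes protein synthesis and restrains autophagy, and with rictor it forms mTORC2, which phosphorylates AKT and SGK1. RHEB, a small GTPase at the lysosome, switches mTORC1 on. The TSC1 and TSC2 proteins form a complex that turns RHEB off, DDIT4 (also called REDD1) acts through TSC, and sestrins restrain mTORC1 through the GATOR complexes and AMPK. In T cells mTORC1 signalling is known to support growth after activation and Th17 differentiation. RNA levels do not report kinase activity, which is governed mostly by phosphorylation, amino acids and location.

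Total counts ran from 16489813 to 51271226 per library. Rtf1 itself, the check of the labels, was at 88.3 to 94.0 CPM (a count scaled to library size) in control and 26.2 to 45.3 CPM in KO (log2 fold change −1.42, SE 0.191 with edgeR's adjusted p = 0.000755). The libraries numbered 3 differed in sex from the rest: they held 11376 (control) and 5147 (KO) counts over 4 Y-linked genes, against 1 to 3 in each of the other libraries. The defining T cell transcripts were present. Their 7 markers summed to 1673 to 1951 CPM in control and 1439 to 1629 CPM in KO. Within that sum the markers changed in both directions. Cd3e (log2 fold change 0.71, edgeR adjusted p = 0.00242) and Cd3g (0.72, adjusted p = 0.0221) were called higher in KO. Cd4 (−0.94, adjusted p = 0.00132), Lck (−0.60, 0.00785) and Cd247 (−0.41, 0.0167) were called lower. Cd4 went from 486 ± 48.6 to 254 ± 36.0 CPM (SD over n = 3). Cd3d and Zap70 were not called. The summed level of 5 Th17 markers was 1315 to 1985 CPM in control and 486.3 to 1114 CPM in KO. A list of 7 myeloid markers summed to 2.09 to 5.04 CPM in control and 16.6 to 27.4 CPM in KO. Both myeloid markers with enough counts to be tested were called higher in KO: Cd68, which made up most of that sum (log2 fold change 2.66, edgeR adjusted p = 0.000790), and Csf1r (0.361 ± 0.135 to 1.18 ± 0.535 CPM, SD over n = 3; log2 fold change 1.72, edgeR adjusted p = 0.0256). Lyz2 had 0, 2 and 4 counts in control libraries 1, 2 and 3 and 46, 11 and 8 in the KO libraries. Itgam, Adgre1, S100a8 and S100a9 had at most 5 counts in any library. The marker lists for fibroblasts, erythroid cells, B cells and CD8 or NK cells summed to at most 11.2 CPM in any library. The part of these differences in the results was not tested, and in bulk RNA fewer cells of a type and less RNA per cell cannot be told apart.

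Of the 10 genes, 5 passed the threshold (edgeR's quasi-likelihood test, Benjamini-Hochberg adjusted p under 0.05 over 14268 tested genes), 3 of them lower in KO and 2 higher. The background is high: 46.1% of all tested genes were called, 22.9% lower and 23.2% higher, so 5 of 10 is close to that share. Ddit4 fell to 40.2% of its control level. Mtor and Rptor fell to 74.7% and 72.2%, and Tsc2 and Sesn2 rose to 127% and 142%. Rictor, Rheb, Tsc1, Sesn1 and Sesn3 were not called. Without control replicates 1, 2 and 3 in turn the number called was 2, 4 and 4. Without KO replicates 1, 2 and 3 in turn it was 3, 2 and 1. Calls over all genes moved too, from 6574 in the main fit. They were 5221, 5827 and 7050 without control replicates 1, 2 and 3, and 6151, 4460 and 5038 without KO replicates 1, 2 and 3. These fits tested 14347 to 14991 genes. The median log2 fold change was 0.075 over the 10 genes and 0.013 over all tested genes. The KO libraries lay wholly below the control libraries for 3 of the 10 genes (Mtor, Rptor and Ddit4) and wholly above for 2 (Tsc1 and Tsc2). Over all tested genes the groups did not overlap for 57.9%, with KO below for 28% and above for 29.9%.

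The promoters of the 5 called genes are shown because these genes carry the changes described here. Each is the stretch of 250 bases before the RefSeq start site (GRCm38.p6), read 5′ to 3′ on the gene's own strand. Capitals mark ACGTG, a form of the core (A/G)CGTG that hypoxia-inducible factors recognise, searched on both strands. The form GCGTG was not searched, so the counts below do not cover every such core. Ddit4 lies at chr10:59951771-59952020 on the minus strand, Rptor at chr11:119602655-119602904 on the plus strand and Mtor at chr4:148448332-148448581 on the plus strand. Tsc2 lies at chr17:24632628-24632877 on the minus strand and Sesn2 at chr4:132510457-132510706 on the minus strand.
Ddit4 promoter: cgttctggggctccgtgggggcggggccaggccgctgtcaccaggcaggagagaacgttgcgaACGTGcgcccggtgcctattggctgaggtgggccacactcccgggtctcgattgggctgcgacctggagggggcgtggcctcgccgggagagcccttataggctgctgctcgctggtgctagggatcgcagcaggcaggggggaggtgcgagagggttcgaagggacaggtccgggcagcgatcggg
Rptor promoter: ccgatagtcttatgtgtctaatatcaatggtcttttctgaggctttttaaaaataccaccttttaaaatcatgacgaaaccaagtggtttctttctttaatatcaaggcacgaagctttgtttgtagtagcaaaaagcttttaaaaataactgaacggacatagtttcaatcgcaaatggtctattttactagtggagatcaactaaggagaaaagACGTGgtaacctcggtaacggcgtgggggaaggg
Mtor promoter: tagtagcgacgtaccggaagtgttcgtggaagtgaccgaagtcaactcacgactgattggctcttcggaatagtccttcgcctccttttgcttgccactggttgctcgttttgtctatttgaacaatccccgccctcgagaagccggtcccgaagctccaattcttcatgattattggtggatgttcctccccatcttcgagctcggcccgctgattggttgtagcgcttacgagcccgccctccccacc
Tsc2 promoter: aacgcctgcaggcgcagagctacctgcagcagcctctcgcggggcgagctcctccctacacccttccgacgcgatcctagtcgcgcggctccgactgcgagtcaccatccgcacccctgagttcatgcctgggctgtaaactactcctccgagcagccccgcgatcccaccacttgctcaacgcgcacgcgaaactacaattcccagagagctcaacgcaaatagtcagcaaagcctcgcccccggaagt
Sesn2 promoter: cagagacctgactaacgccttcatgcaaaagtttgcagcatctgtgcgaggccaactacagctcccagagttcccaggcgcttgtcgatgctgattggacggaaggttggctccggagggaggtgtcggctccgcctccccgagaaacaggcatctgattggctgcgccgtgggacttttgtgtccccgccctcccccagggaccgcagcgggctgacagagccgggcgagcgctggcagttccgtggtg
Ddit4 held ACGTG once, 187 to 183 bases before its start, and Rptor held it once, 34 to 30 bases before its start. Mtor, Tsc2 and Sesn2 held no ACGTG in this window. All 10 genes had a window, 11 in all, since Sesn1 has 2 start sites. The only other match to ACGTG was in Rheb, inside an E-box (CACGTG, a motif of MYC and TFEB proteins) 96 to 91 bases before its RefSeq start. Among all 32851 RefSeq windows, 16.6% held ACGTG and 6.02% held CACGTG, and every CACGTG contains ACGTG. The element TGATGNAAN, bound by ATF4 with C/EBP partners, the FOXO core GTAAACA and the cAMP element TGACGTCA were in none of the 11 windows, against 3.44%, 3.17% and 1.55% of all windows. The GC content was 70.0% for Ddit4 and 37.6% for Rptor, with a median of 52.4% over all windows. The GENCODE gene models used below start elsewhere for some genes. The windows of Rheb, Sesn3 and Sesn1 lie inside those models, and those of Ddit4 and Sesn2 do so in part. The windows of Tsc1, Tsc2 and Rictor reach into them by a few bases. For these genes the windows are upstream of the RefSeq start only.

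Ddit4, the stress-induced restraint that acts through TSC, changed most of the 10. Control libraries 1, 2 and 3 held 367, 397 and 360.0 CPM, and KO libraries 1, 2 and 3 held 145, 163 and 144 CPM. The KO libraries sat close together and far below every control library. The means were 375 ± 19.4 and 151 ± 10.5 CPM (SD over n = 3), a log2 fold change of −1.31 (SE 0.114, 95% interval −1.57 to −1.06, edgeR adjusted p = 0.000140), or 2.49-fold lower. It ranked 127 of 14268 genes by p-value. Libraries of equal number gave nearly one value, with log2 ratios of −1.34, −1.29 and −1.32. Ddit4 stayed called in each of the 13 alternative fits, with log2 fold changes from −1.40 to −1.22. It lies on chromosome 10 (GRCm38, 59949669 to 59951834, minus strand), and none of its exonic bases overlap another gene. Its relative Ddit4l was barely present, at 0.250 ± 0.150 CPM in control and 0.800 ± 0.181 CPM in KO (SD over n = 3).

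**Figure D1:**
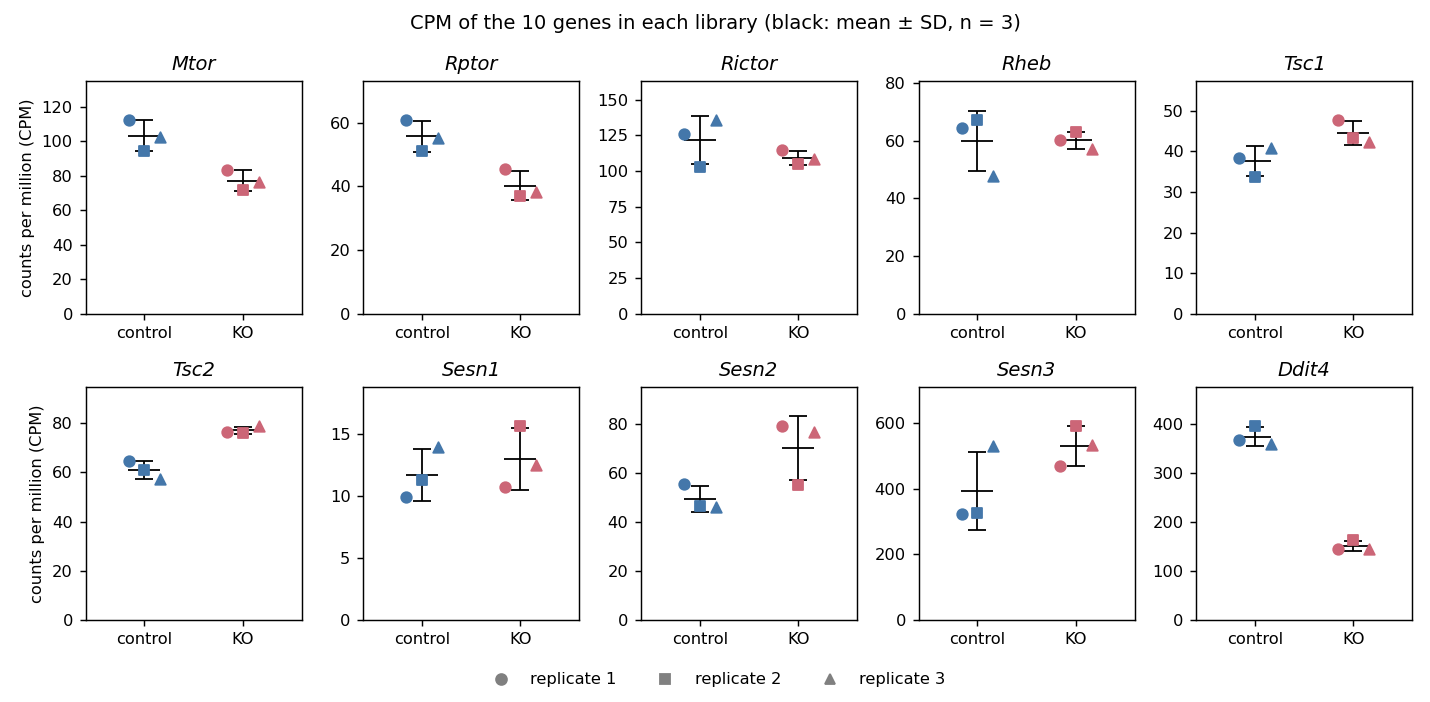
CPM (vertical axis, from 0, its own scale in each panel) of the 10 genes in control (blue) and KO (red), with 1 symbol per library by replicate number and black bars for the mean ± SD of 3 libraries. Ddit4 shows the widest gap, 360.0 to 397 CPM in control against 144 to 163 in KO, while Sesn3 in control replicate 3 (529 CPM) sits with the KO libraries.

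Mtor, the kinase shared by both complexes, was lower in KO. Control libraries 1, 2 and 3 held 112, 94.5 and 102 CPM, and KO libraries held 83.5, 71.5 and 76.1 CPM. Every KO library lay below every control library. The means were 103 ± 8.96 and 77.0 ± 6.02 CPM (SD over n = 3), a log2 fold change of −0.42 (SE 0.115, 95% interval −0.68 to −0.16, edgeR adjusted p = 0.0164). The log2 ratios between libraries of equal number were −0.43, −0.40 and −0.43. The call was lost without KO replicate 2 (−0.37, adjusted p = 0.0780) and without KO replicate 3 (−0.41, adjusted p = 0.0538).

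Rptor, whose product raptor brings substrates to mTORC1, fell by a like amount. Its levels were 60.9, 51.1 and 55.1 CPM in control libraries 1, 2 and 3 and 45.4, 36.9 and 38.3 CPM in the KO libraries. No KO library reached the lowest control library. The means were 55.7 ± 4.92 and 40.2 ± 4.58 CPM (SD over n = 3; log2 change −0.47, SE 0.131, 95% interval −0.77 to −0.17, edgeR adjusted p = 0.0176). The call was lost without control replicate 1 (−0.47, adjusted p = 0.0543), without KO replicate 2 (−0.41, adjusted p = 0.0849) and without KO replicate 3 (−0.44, adjusted p = 0.0619).

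Rictor, the scaffold of mTORC2, was at 126, 103 and 136 CPM in control libraries 1, 2 and 3 and at 114, 105 and 109 CPM in the KO libraries. The groups overlapped, since control replicate 2 was lowest of all. The means were 122 ± 16.8 and 109 ± 4.77 CPM (SD over n = 3), a log2 fold change of −0.15 with a 95% interval of −0.44 to 0.13 (edgeR adjusted p = 0.349). That interval holds no change as well as a fall as large as that of Mtor, so Rictor cannot be called steady. The scaffolds were therefore compared directly within each library, a ratio that does not depend on how libraries are scaled. There were 2.07, 2.02 and 2.47 Rictor counts per Rptor count in control libraries 1, 2 and 3 and 2.52, 2.85 and 2.84 in the KO libraries. Every KO library was above every control library, although control replicate 3 came close to KO replicate 1. The mean log2 ratio was 1.12 ± 0.159 in control and 1.45 ± 0.101 in KO (SD over n = 3), a shift of 0.33 (two-sided exact permutation test, p = 0.1). That is the lowest p this test can give with 3 against 3, and the test used no pairing by replicate number.

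**Figure D2:**
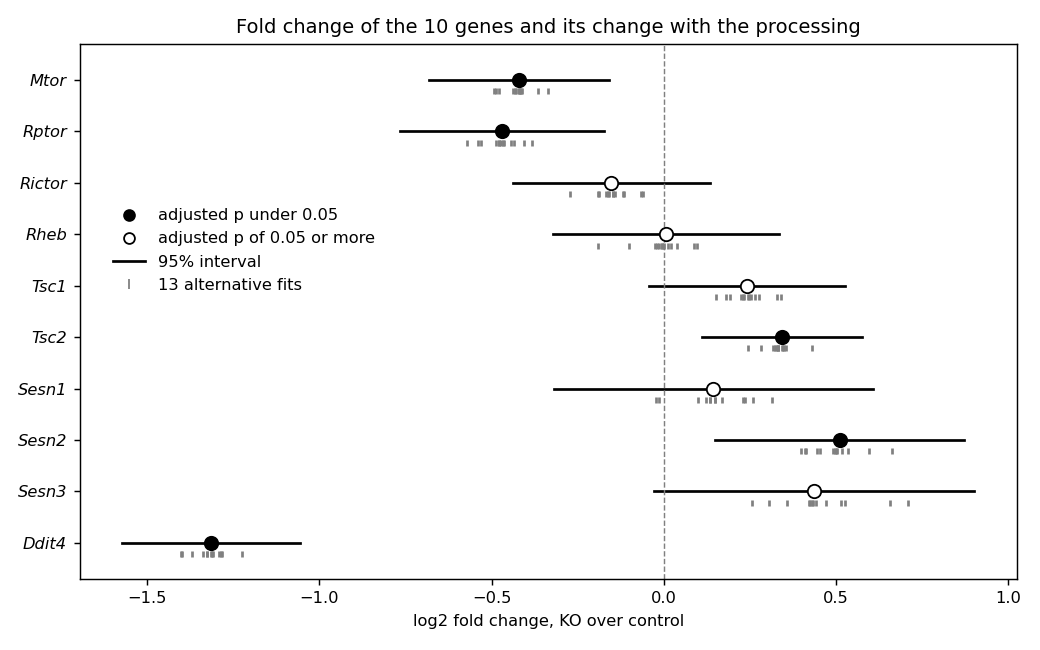
Log2 fold change of KO over control (horizontal axis) for the 10 genes, with filled circles for adjusted p under 0.05, open circles for the rest, lines for 95% intervals and grey ticks for 13 alternative fits. Ddit4 lies far to the left at −1.31, and the ticks of Rheb and Sesn1 fall on both sides of 0.

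Rheb, which encodes the activator of mTORC1, had means that differed by less than the SD of either group. Control libraries 1, 2 and 3 held 64.4, 67.2 and 47.9 CPM and KO libraries held 60.1, 62.9 and 57.2 CPM. All KO libraries fell inside the control range, whose low end was control replicate 3. The means were 59.8 ± 10.5 and 60.1 ± 2.84 CPM (SD over n = 3; log2 change 0.0066, 95% interval −0.32 to 0.33, edgeR adjusted p = 0.974). The sign of this value changed in 7 of 13 alternative fits, and without control replicate 3 it was −0.19 (adjusted p = 0.219).

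Tsc2, the subunit of the TSC complex that acts on RHEB, was higher in KO. Control libraries 1, 2 and 3 held 64.6, 60.9 and 57.2 CPM and KO libraries held 76.4, 76.3 and 79.0 CPM. The KO libraries differed little among themselves and all exceeded the control libraries. The means were 60.9 ± 3.69 and 77.2 ± 1.53 CPM (SD over n = 3), a log2 fold change of 0.34 (SE 0.103, 95% interval 0.11 to 0.58, edgeR adjusted p = 0.0238). The direction held in each of the 13 alternative fits, but the call held in only 5. It was lost with DESeq2 (0.32, adjusted p = 0.0737), without a filter on low counts (0.33, adjusted p = 0.0562) and with the libraries numbered 1 and 2 alone (0.28, adjusted p = 0.0924). Without control replicates 1 and 3 in turn the adjusted p was 0.106 and 0.108, and without KO replicates 1, 2 and 3 it was 0.0525, 0.0698 and 0.0801. Tsc2 is uncertain for a further reason: 7.20% of its exonic bases overlap Pkd1 on the opposite strand, and the strand setting of the counting is not stated. Pkd1 itself was at 54.8 ± 8.68 CPM in control and 41.9 ± 4.54 CPM in KO (SD over n = 3), opposite in direction to Tsc2 (edgeR adjusted p = 0.0641).

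Tsc1, which stabilises TSC2, held 38.4, 33.6 and 40.9 CPM in control libraries 1, 2 and 3 and 47.8, 43.3 and 42.3 CPM in the KO libraries. The groups did not overlap, but KO replicate 3 exceeded control replicate 3 by little. The log2 fold change was 0.24 (SE 0.126, 95% interval −0.044 to 0.53, edgeR adjusted p = 0.145), and no alternative fit called it. The ratio of Tsc1 to Tsc2 counts within a library did not separate the groups, with a mean log2 ratio of −0.70 ± 0.193 in control and −0.80 ± 0.114 in KO (SD over n = 3; two-sided exact permutation test, p = 0.6). The sign of that difference rested on control replicate 3, without which it was 0.0067 in place of −0.10. TBC1D7, the third subunit of the complex, had a transcript level of 15.7 ± 1.19 CPM in control and 13.2 ± 1.89 CPM in KO (SD over n = 3; edgeR adjusted p = 0.243).

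Sesn2, a leucine-sensing sestrin and a known ATF4 and p53 target, was the called sestrin. Control libraries 1, 2 and 3 held 55.5, 46.3 and 46.1 CPM and KO libraries held 79.1, 55.1 and 76.4 CPM. KO replicate 2 was lower than control replicate 1, so the groups overlapped by a narrow margin. The means were 49.3 ± 5.37 and 70.2 ± 13.1 CPM (SD over n = 3; log2 change 0.51, SE 0.159, 95% interval 0.15 to 0.87, edgeR adjusted p = 0.0281). The call was lost with the libraries numbered 1 and 2 alone (0.40, adjusted p = 0.0914). It was also lost without control replicates 1, 2 and 3 in turn (adjusted p = 0.0603, 0.0922 and 0.0701) and without KO replicates 1 and 3 (0.0908 and 0.0910). Without KO replicate 2 it held (0.66, adjusted p = 0.0138).

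Sesn3, a sestrin gene known as a FOXO target, was split within the control group. Control libraries 1, 2 and 3 held 323, 325 and 529 CPM, and KO libraries held 469, 591 and 534 CPM. Control replicate 3 stood inside the KO range, and the other control libraries lay well below it. The means were 392 ± 118 and 531 ± 61.4 CPM (SD over n = 3; log2 change 0.44, SE 0.205, 95% interval −0.028 to 0.90, edgeR adjusted p = 0.110), which is not a call. With the replicate number as a block it was called (0.47, edgeR adjusted p = 0.0276). The log2 ratios between libraries of equal number were 0.54, 0.86 and 0.013. Without control replicate 3 the value was 0.66 (adjusted p = 0.00662) and without control replicate 1 it was 0.26 (adjusted p = 0.375). With the libraries numbered 1 and 2 alone, those of the other sex left out, it was 0.71 (adjusted p = 0.00535). A difference between the sexes was not tested.

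Sesn1, a known p53 and FOXO target, had the lowest CPM of the 10 in every library. It held 9.91, 11.3 and 13.99 CPM in control libraries 1, 2 and 3 and 10.7, 15.7 and 12.5 CPM in the KO libraries. The groups overlapped throughout. The log2 fold change was 0.14 (SE 0.204, 95% interval −0.32 to 0.61, edgeR adjusted p = 0.590), and its sign changed without control replicate 1 (−0.024) and without KO replicate 2 (−0.013).

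To compare genes with one another, CPM were divided by the kilobases of exon in GENCODE M21, which gives RPKM. This scale counts all annotated exons, so a gene whose long exons are little used appears too low. In control Ddit4 was highest at 213 ± 11.1 RPKM, followed by Sesn3 at 25.7 ± 7.76, Sesn2 at 14.2 ± 1.54 and Mtor at 10.2 ± 0.886 RPKM (SD over n = 3). Rheb (7.75 RPKM), Rictor (7.18) and Tsc2 (6.33) came next, and each overlapped its neighbour in this order. Rptor (4.13 RPKM), Tsc1 (3.18) and Sesn1 (2.94) were lowest, the last 2 overlapping. In KO Ddit4 (85.8 ± 5.99 RPKM), Sesn3 (34.8 ± 4.02) and Sesn2 (20.2 ± 3.78) kept the first 3 places. Mtor dropped from place 4 to 6 and Tsc2 moved from 7 to 4, although Tsc2 (8.02 RPKM), Rheb (7.78) and Mtor (7.62) overlapped in KO. Rptor was last in KO at 2.98 ± 0.340 RPKM, overlapping Sesn1 at 3.26 ± 0.629 RPKM.

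The sestrins together summed to 39.6, 37.4 and 51.4 RPKM in control libraries 1, 2 and 3 and to 56.2, 58.5 and 60.1 RPKM in the KO libraries. That separation depends on the division by length. Summed as CPM the groups overlapped, with 589 CPM in control library 3 and 559 CPM in KO library 1. The mean shares of Sesn2 and Sesn3 differed between the groups by less than the SD within either. Sesn3 supplied 59.2% ± 7.28 of the sum in control and 59.7% ± 5.89 in KO, Sesn2 33.9% ± 7.41 and 34.7% ± 6.90, and Sesn1 6.89% ± 0.638 and 5.59% ± 1.01 (SD over n = 3). These shares are a description with no test.

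**Figure D3:**
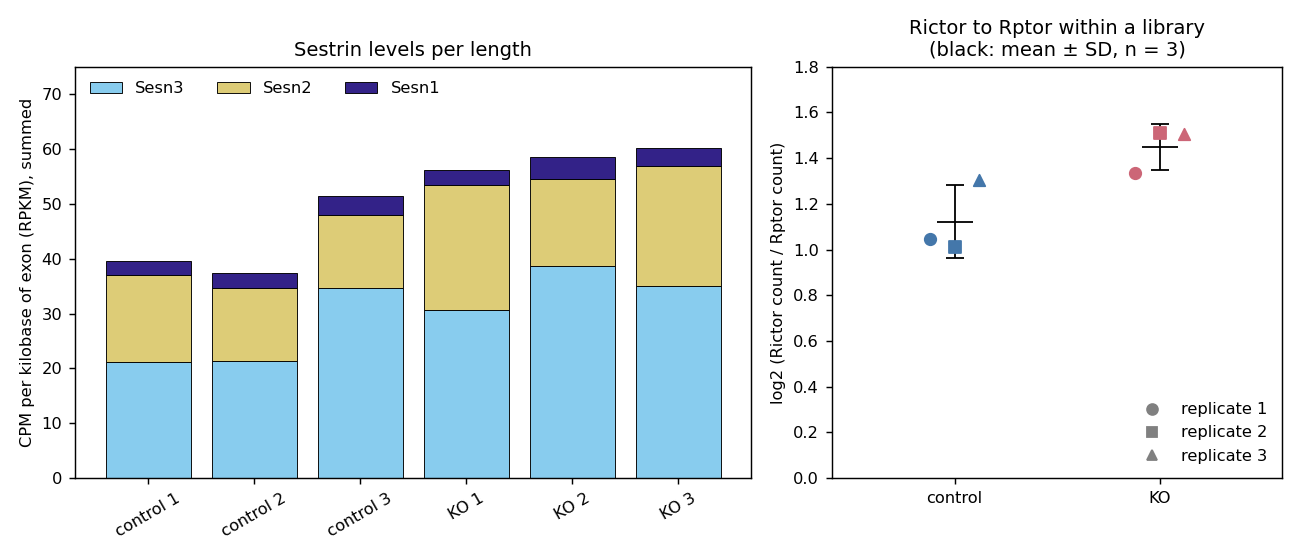
Left, RPKM of Sesn3, Sesn2 and Sesn1 stacked for each library (vertical axis from 0); right, log2 of Rictor counts over Rptor counts in each library, with black bars for the mean ± SD of 3 libraries. The sestrin sum runs from 37.4 to 51.4 RPKM in control and from 56.2 to 60.1 in KO, although the groups overlap when CPM are summed. The Rictor to Rptor ratio is higher in each KO library than in any control library.

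Around the 10 genes, 94 other genes of the pathway were looked up in 8 lists, and 93 were tested (Prkag3 was not). Of these, 19 were called higher and 25 lower, 47.3% against the 46.1% of all tested genes, and their median log2 fold change was 0.039. The balance of directions moved with 1 library and with the scaling: 11 were called higher and 26 lower without control replicate 1, and 27 higher and 25 lower with library size as the only scaling. Named genes were the called ones with the largest changes, up to 3 in each direction per list, and every gene of the transcription factor list. By list the share called ran from 42.9% to 47.1%, near that of all tested genes, apart from 66.7% in a list of 3 genes. The lists describe roles only, and their counts carry no test of their own.

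Among 9 further genes for complex subunits and their assembly, 3 were called lower and 1 higher (median log2 fold change −0.046). Mlst8, the small subunit common to both complexes, fell from 13.2 ± 0.795 to 6.27 ± 1.45 CPM (SD over n = 3; log2 change −1.07, edgeR adjusted p = 0.00351). It is uncertain, since 22.5% of its exonic bases overlap Bricd5 on the opposite strand. Telo2, which helps newly made mTOR assemble, fell from 27.3 ± 2.53 to 15.1 ± 1.72 CPM (−0.85, edgeR adjusted p = 0.00211). Prr5 and Prr5l encode related rictor-binding proteins. Prr5 fell from a very low level, 13 to 44 counts per control library against 3 to 5 per KO library (edgeR adjusted p = 0.00560), and Prr5l rose from 8.35 ± 0.437 to 14.2 ± 0.473 CPM (0.77, adjusted p = 0.00426). Among the 3 partners of TSC and RHEB, Rhebl1, a RHEB relative, fell from 10.9 ± 1.03 to 4.59 ± 0.567 CPM (−1.24, edgeR adjusted p = 0.00155), with 17.99% of its exonic bases overlapping other genes. Ddit4l was called higher (1.67, adjusted p = 0.0319), a call lost without control replicate 1 or 2 (adjusted p = 0.0818 and 0.0686) and without KO replicate 2 or 3 (0.0947 and 0.0959).

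The Rag GTPases, the Ragulator scaffold and folliculin bring mTORC1 to the lysosome when amino acids are present. Of these 13 genes, 5 were called higher and 1 lower, and the median log2 fold change was 0.29. The share called was 46.2%, close to the 46.1% of all tested genes. Flcn, the folliculin gene, rose from 23.8 ± 2.52 to 89.6 ± 11.5 CPM (SD over n = 3; log2 change 1.92, SE 0.142 with edgeR's adjusted p = 7.9e-05). Rragc, a Rag GTPase regulated by folliculin, rose from 78.6 ± 2.79 to 136 ± 12.1 CPM (0.80, edgeR adjusted p = 0.000824), and Lamtor3 of Ragulator from 30.3 ± 4.35 to 51.8 ± 2.07 CPM (0.78, adjusted p = 0.00238). Of the exonic bases of Rragc, 7.90% overlap another gene on the opposite strand. Fnip2, which encodes a folliculin partner, fell from 15.97 ± 2.08 to 7.86 ± 2.33 CPM (−1.02, edgeR adjusted p = 0.00789).

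Sestrins act on mTORC1 through the GATOR complexes, whose list also holds KICSTOR and other amino acid sensors. Of its 13 genes, 5 were called lower and 1 higher (median log2 fold change 0.039). Wdr59, a GATOR2 subunit, fell from 51.7 ± 6.23 to 24.8 ± 2.93 CPM (SD over n = 3; −1.06, edgeR adjusted p = 0.000819). The KICSTOR genes Kptn (−1.40, edgeR adjusted p = 0.00602) and Itfg2 (−0.99, adjusted p = 0.00257) fell. Wdr24 was called higher (0.36, adjusted p = 0.0351), but the call held in only 4 of the 13 alternative fits. It was lost in all 6 fits that left out 1 library (adjusted p from 0.0578 to 0.231), with DESeq2 (0.0819), without a filter on low counts (0.0947) and in the libraries numbered 1 and 2 alone (0.0805).

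**Figure D4:**
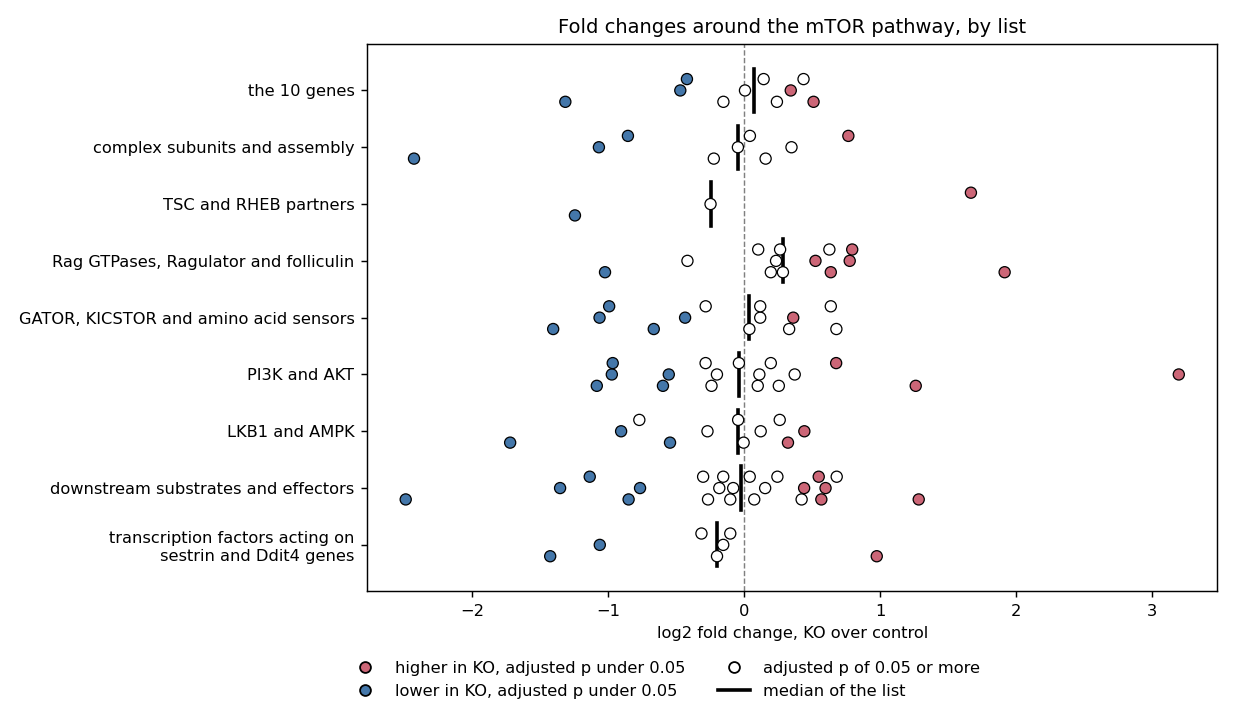
Log2 fold change of KO over control (horizontal axis) for each tested gene of the 10 and of 8 lists around them, red where called higher, blue where called lower and open where not called, with a bar at each list's median. Genes of every list lie on both sides of 0, with Pik3r3 (3.20) and Eif4ebp1 (−2.49) farthest out.

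Upstream of TSC, 3 of the 17 PI3K and AKT genes were called higher and 5 lower (median log2 fold change −0.038). Pik3r1, the main regulatory subunit gene of PI3K, rose from 209 ± 28.4 to 335 ± 20.6 CPM (SD over n = 3; 0.68, edgeR adjusted p = 0.00385). Pik3r3, another regulatory subunit, rose from 0.873 ± 0.273 to 8.14 ± 1.15 CPM (3.20, edgeR adjusted p = 0.000209) and is uncertain, as 24.3% of its exonic bases overlap a gene model on the same strand, Gm49337. Phlpp1, an AKT phosphatase, was called higher (1.26, adjusted p = 0.0120), but not without control replicate 2 (adjusted p = 0.0505), and without KO replicate 3 its log2 fold change was 0.77. Pik3r2 (−1.08), Pik3cb (−0.97) and Inpp4b (−0.97), a phosphatase of PI3K products, fell, with edgeR adjusted p of 0.000698, 0.00553 and 0.000785. Of 11 tested LKB1 and AMPK genes, 2 were called higher and 3 lower (median −0.044). AMPK activates TSC2, and its subunit genes Prkab2 and Prkag2 fell, from 12.998 ± 1.95 to 3.92 ± 0.715 CPM (−1.72, edgeR adjusted p = 0.000616) and from 23.7 ± 2.86 to 12.6 ± 3.48 CPM (−0.90, adjusted p = 0.00777). Prkag2 overlaps antisense transcripts over 14.5% of its exonic bases. Cab39l, an LKB1 partner, fell (−0.54, adjusted p = 0.00561). Stk11, the LKB1 gene, was called higher (0.44, adjusted p = 0.0202), and Prkaa1, the catalytic AMPK subunit, too (0.32, adjusted p = 0.0422). The call of Stk11 was lost without control replicate 1 or 3 and without KO replicate 2 or 3 (adjusted p from 0.0705 to 0.0817), and with the libraries numbered 1 and 2 alone (0.31, adjusted p = 0.0936). That of Prkaa1 held, among the 6 fits with 1 library left out, only without KO replicate 3 (adjusted p up to 0.219 in the others) and was lost with RLE size factors (0.0552), with DESeq2 (0.121) and without a filter on low counts (0.0882).

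Downstream, 5 of 22 substrate and effector genes were called higher and 5 lower (median log2 fold change −0.019). Eif4ebp1, the translation repressor that mTORC1 inactivates, fell from 138 ± 14.6 to 24.5 ± 5.47 CPM (SD over n = 3; −2.49, SE 0.176 with edgeR's adjusted p = 7.0e-05). The autophagy genes Ulk1 and Ulk2, whose kinases mTORC1 inhibits, rose by 1.28 and 0.57 on the log2 scale (edgeR adjusted p = 0.000819 and 0.00673). Atg13, their partner, rose by 0.60 (adjusted p = 0.00985), a call lost without control replicate 1 (adjusted p = 0.0579). Grb10, an adaptor that mTORC1 stabilises, was called lower (−1.35, adjusted p = 0.0120), but not without KO replicate 2 (adjusted p = 0.0579) or with the libraries numbered 1 and 2 alone (−1.16, adjusted p = 0.0738). Ndrg1, a gene whose product is an SGK1 substrate, was called lower too (−1.14, adjusted p = 0.0269), a call lost without KO replicate 1 (adjusted p = 0.0556) or KO replicate 2 (0.0950). Gene models on the opposite strand overlap 8.43% of the exonic bases of Ndrg1.

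The last list held 7 transcription factor genes known to act on sestrin genes or Ddit4, of which 2 were lower, 1 was higher and 4 were not called. Atf4, a driver of Ddit4 and Sesn2 in amino acid stress, fell from 387 ± 73.3 to 144 ± 15.3 CPM (SD over n = 3; −1.43, SE 0.163 with edgeR's adjusted p = 0.000401). Hif1a, a driver of Ddit4 in low oxygen, fell from 950.1 ± 242 to 455 ± 16.2 CPM (−1.06, edgeR adjusted p = 0.00197), with 8.11% of its exonic bases overlapping other gene models. Nfe2l2, the NRF2 gene, which acts on Sesn2 in oxidative stress, rose from 57.3 ± 12.5 to 113 ± 21.4 CPM (0.98, edgeR adjusted p = 0.00370). Of their targets named above, Ddit4 was lower and Sesn2 higher, the latter a call that held in 7 of 13 alternative fits. Any part of these factors in either change was not tested. Trp53 (−0.20, adjusted p = 0.274), Ddit3 (−0.31, 0.220), Foxo1 (−0.15, 0.451) and Foxo3 (−0.10, 0.662) were not called. Without control replicate 3 Trp53 was called lower (−0.38, adjusted p = 0.0419).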

How the data were processed

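Total RNA of 6 mouse Th17 libraries was sequenced. Group and replicate number came from the sample titles and columns from the sample descriptions, with 0 columns left over. The authors deposited raw counts per gene symbol; STAR, featureCounts, DESeq2 and the build mm10 (GRCm38) are named per the submitters' processing notes. Versions, annotation and strand setting are not given in the sources used here. The members and lists were chosen with earlier results of these data known.

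KO was compared with control by edgeR's quasi-likelihood test (edgeR 4.0.16, R 4.3.3; TMM factors, filterByExpr by group, no covariate, Benjamini-Hochberg over 14268 genes, threshold 0.05). The filter kept 99.9% of counts, and the biological coefficient of variation was 0.212. The standard error is the absolute log2 fold change over the square root of F, and 95% intervals use the test's degrees of freedom. CPM use TMM factors. No molecular identifiers are stated, so reads need not be independent molecules. Named pathway genes were the called ones with the largest change, up to 3 per direction and list. Some genes of these lists are not reported here and were left out of the counts. Castor1 and Castor2 were found under the synonyms Gatsl3 and Gatsl2. Gene positions, lengths and overlaps came from GENCODE M21 (GRCm38) and promoters from RefSeq (GRCm38.p6). On simulated counts, 71% of 100 genes changed by 1 on the log2 scale and 100% of those changed by 2 were called in the right direction among 14083 genes, with 8 false calls. The simulation gave all genes the same dispersion and changed a far smaller share of genes than the 46.1% called in the data. It held no change smaller than 1, so it does not cover the calls of Mtor, Rptor, Tsc2 and Sesn2.

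Equal replicate numbers were treated as possible pairs in the replicate block only, and the main test used no pairing. Deviations from the group mean correlated across genes at 0.27, 0.13 and 0.379 for numbers 1, 2 and 3. The value for control replicate 2 against KO replicate 1 was 0.204, above that for number 2. The other values between unlike numbers were negative, from −0.39 to −0.018. Both libraries numbered 3 also share a sex that the others do not, which cannot be told apart from pairing. These values therefore do not establish a pairing. Alternatives were RLE size factors, library size only, no filter, a mean count of at least 10, DESeq2 1.42.0, each library left out, the libraries numbered 1 and 2 alone and the replicate block.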

Additional observations from a re-analysis of the deposited data

How the results depend on the processing

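Of the 10 genes, 4 to 6 were called when all 6 libraries were kept under other scaling, filters, DESeq2 or the replicate block, against 5 in the main comparison. The block gave 6, adding Sesn3, and changed no other call among the 10 and the named pathway genes. Leaving out 1 library gave 1 to 4, so the number of calls varied with the library left out. It was 4 without control replicate 2 or 3 and lower in the other such fits. Ddit4 was the gene called in every fit with 1 library left out. The libraries numbered 1 and 2 alone gave 4 calls. For the other pathway genes, 34 to 45 were called with 1 library left out, 43 to 52 in the fits that kept all libraries, and 42 with the libraries numbered 1 and 2. For all genes, 4460 (without KO replicate 2) to 7050 were called with 1 library left out, and 7628 with the block. The Rictor to Rptor shift ran from 0.27 to 0.42, and the Tsc1 to Tsc2 difference from −0.18 to 0.0067, with 1 library left out. Signs turned only for values that were not called. Rheb was −0.0067 with RLE factors, −0.0044 without a filter, −0.019 with DESeq2, −0.10 with the libraries numbered 1 and 2, and −0.19 to 0.087 with 1 library left out. Foxo1 was 0.071 with the libraries numbered 1 and 2. With 1 library left out, Sesn1 ran from −0.024 to 0.26 and Foxo3 from −0.23 to 0.044. Fits that left 2 libraries in a group assume that these vary like the others. Depth limits Prr5, Ddit4l and Grb10, which had fewer than 100 counts in every library.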
